A study of Mus musculus with 4 samples.

Results

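The genes described here encode the subunits of oxidative phosphorylation that are made from nuclear DNA. The set was chosen with earlier results of these data known, and membership followed a rule on the symbol. It took *Nduf* followed by a, b, c, s or v and a number for complex I, and *Sdha* to *Sdhd* for complex II. For complex III it took *Uqcr*, for complex IV *Cox4* to *Cox8* followed by a, b or c, and for complex V *Atp5*. The rule found 81 of the 20642 gene symbols listed, 37 in complex I, 4 in complex II, 8 in complex III, 15 in complex IV and 17 in complex V. The symbols are not a perfect guide to function. *Atp5s*, *Atp5sl* and *Cox7a2l* meet the rule but are not counted among the structural subunits, *Cox7a2l* being known for joining complexes III and IV, and *Ndufa4*, counted here with complex I, encodes a subunit of complex IV.

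Complexes I to IV pass electrons from NADH and succinate to oxygen and, except for complex II, pump protons across the inner mitochondrial membrane, and complex V, the ATP synthase, uses the proton gradient to make ATP. A few subunits of complexes I, III, IV and V are encoded by mitochondrial DNA, and all others, including every subunit of complex II, are transcribed in the nucleus by RNA polymerase II. The liver depends on this chain for gluconeogenesis, urea synthesis and the oxidation of fatty acids, and nuclear factors such as NRF1, GABP and the PGC-1 coactivators are known to drive the subunit genes together.

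The measurements came from PRO-seq (precision nuclear run-on sequencing), in which the RNA held by engaged polymerases is labelled in isolated nuclei and sequenced, and asked how loss of the histone deacetylase gene *Hdac3* changes engaged polymerase. Livers were from C57BL/6 mice on day 14 after birth, with 2 WT and 2 *Hdac3* KO libraries, each of nuclei pooled from several mice. All of the mice carried Alb-Cre, a Cre recombinase driven by the albumin promoter and so active in hepatocytes and their relatives; the WT mice had intact *Hdac3* alleles, the KO mice had either a pair of floxed alleles or a floxed and a null allele, and the other cells of a KO liver kept at least a floxed allele. The libraries held between 16628518 and 26190040 reads on genes, with the fewest in the second KO library, and promoter-proximal windows took 10.3% and 9.38% of them in WT against 13.6% and 17.0% in KO.

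The reads on *Hdac3* itself did not show the deletion. Its normalized gene body reads were 665 and 648 in the WT libraries and 609 and 582 in KO, and the log2 fold change was -0.14, with a standard error of 0.13 and an adjusted p of 0.413 in limma. The genotypes are therefore taken from the labels alone. Promoter-proximal reads are those in the 50 bp window with most reads near the transcription start site (TSS), and gene body reads are those from 1 kb downstream of the TSS to the end of the gene, both multiplied by the authors' scaling factor for the library. Fold changes are KO over WT on the scale of log2(normalized reads + 1), tested with limma over the 12705 active genes, which had reads at the promoter and on average more than 4 normalized reads per kb of gene body. A gene was called at an adjusted p under 0.05 with a log2 fold change beyond 0.6 in either direction. In a design of 2 libraries against 2, an exact two-sided permutation test cannot give a p below 0.333, and since each library is a pool, the p-values measure the spread between pools.

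Of the 81 genes, 77 were active. The other 4 were *Cox6b2*, *Cox7b2*, *Cox8b* and *Cox8c*, isoforms of complex IV subunits known mainly from testis or from heart and skeletal muscle. *Cox8c* had no read in either region of any library. *Cox7b2* had no promoter-proximal read and at most 3.44 normalized gene body reads in a library, and *Cox8b* had reads only in the promoter-proximal windows of the KO libraries, 2.12 and 1.52. *Cox6b2* had 71.1 and 40 promoter-proximal reads in WT and 98.7 and 121 in KO, but no gene body that could be counted.

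Most subunit genes carried more polymerase than a typical active gene of these livers. In WT, 65 of the 77 had a gene body density above the median of active genes, and their own median was 70.8 normalized reads per kb against 37.7 over active genes. The densities of the subunit genes spanned 31.0-fold. The highest were those of *Uqcrq*, a small subunit of complex III, with 308 and 327 reads per kb in WT, *Atp5b*, the catalytic beta subunit of ATP synthase, with 309 and 277, and *Atp5a1*, its alpha subunit, with 258 and 238. These libraries do not set *Uqcrq* and *Atp5b* apart, since their ranges overlap, whereas both WT values of *Atp5a1* lay below both of theirs. The lowest were *Ndufa1*, with 9.52 and 10.9 reads per kb in WT, *Atp5s*, with 15.0 and 14.5, and *Cox7a1*, with 10.7 and 19.8. The subunit genes were also short, with a median gene body of 6074 bp against 19243 bp over active genes, and 67 of them were shorter than that median. In *Atp5k*, *Cox5b*, *Cox7a1*, *Cox7c* and *Uqcrq* the counted gene body was under 1 kb.

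In the KO livers, gene body polymerase was lower across nearly the whole set. The fitted change was below 0 in 75 of the 77 active genes, with a median of -0.50 against -0.09 over all active genes. 24 were called down and 0 were called up, where 11.4% of active genes were called down and 10.4% up. At an adjusted p under 0.05 with no limit on the fold change, 50 were down and 0 up, against 22.1% and 17.0% of active genes. At an unadjusted p under 0.05, 59 were down and 0 up, against 27.0% and 19.7% of active genes, and edgeR and DESeq2 on the recovered reads also called 0 up. Both KO libraries lay below both WT libraries in 66 of the 77 genes, against 42.8% of active genes, and above them only in *Ndufa4l2*, against 27.6%. The interquartile range of the changes was -0.64 to -0.33, while that of all active genes was -0.33 to 0.21.

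The lower level was present in each library. The median gene body density of the 77 genes was 69.5 and 68.2 normalized reads per kb in the WT libraries and 50.2 and 46.8 in the KO libraries, whereas the median over active genes was 37.2 and 38.1 in WT and 36.6 and 34.4 in KO. Set pair by pair, the median log2 ratio of the subunit genes was -0.44 and -0.43 for the first KO library over the WT libraries and -0.52 for the second KO library over either, but 0.02 between the WT libraries and -0.10 between the KO libraries. The difference between genotypes was thus several times larger than that between libraries of a genotype. Reads on the 77 gene bodies made up 0.223% and 0.213% of all gene body reads in WT and 0.175% and 0.172% in KO. Leaving out the second KO library, which leaves 1 KO library, gave a median change of -0.48, against -0.04 over active genes. Many of the 24 calls were lost. Scaling within gene bodies by median of ratios or TMM moved the median change of the subunit genes to -0.42. It left 11 called down instead of 24, against 9.37% and 9.38% of active genes.

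**Figure D1:**
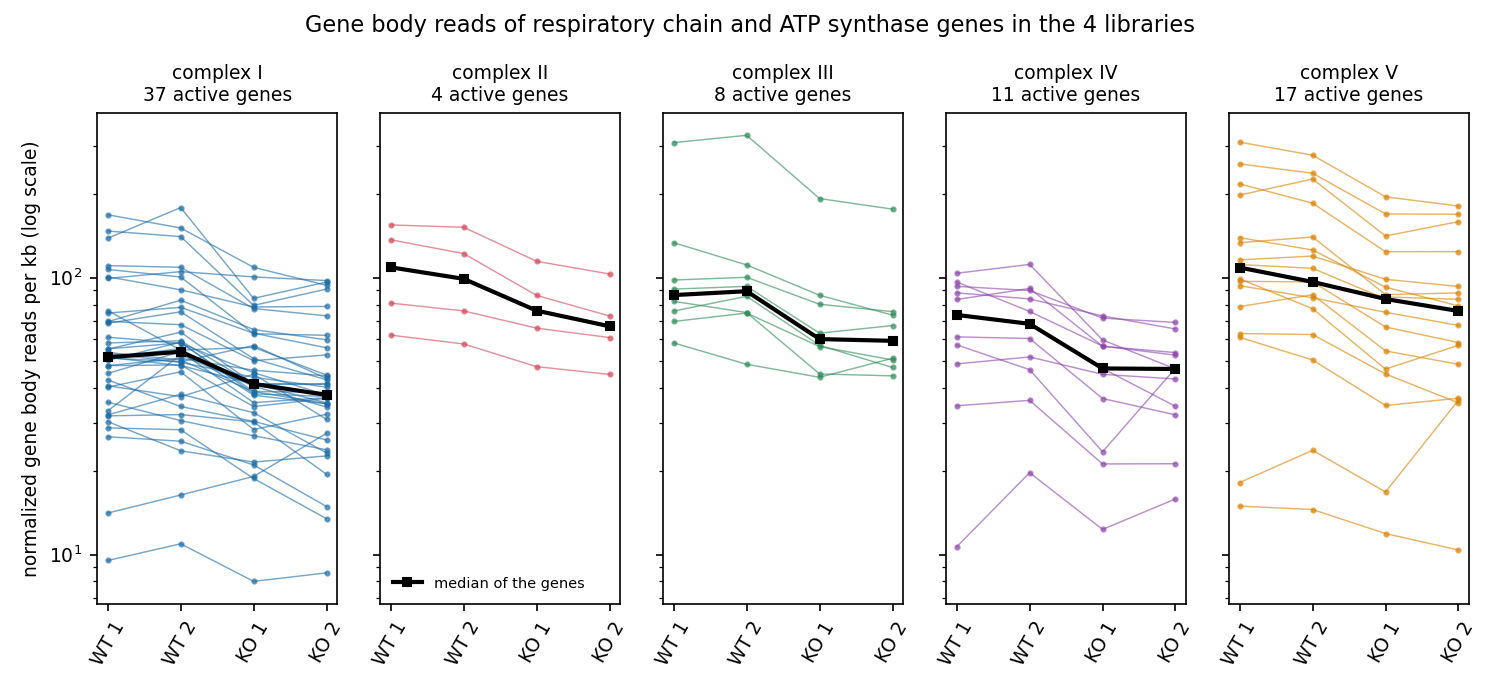
Normalized gene body reads per kb (log scale) of each active gene in the 2 WT and 2 Hdac3 KO libraries, in a panel for each complex; a thin line is a gene and the black line is the median of the panel. The medians of all 5 complexes were lower in each KO library than in either WT library, for example 109 and 99.1 in WT against 76.1 and 66.8 in KO in complex II.

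The 4 largest falls with separated groups belonged to 3 small subunits of complex IV and 1 of complex III. *Cox8a*, the form of subunit VIII found in most tissues, had 151 and 163 normalized gene body reads in WT and 87.0 and 68.3 in KO (log2 fold change -1.02, standard error 0.21, adjusted p = 0.000481). *Cox6c* had 322 and 318 reads in WT and 193 and 169 in KO (log2 fold change -0.82, standard error 0.17, adjusted p = 0.000311), and *Cox7b* had 422 and 392 in WT and 271 and 197 in KO (-0.81, standard error 0.17, adjusted p = 0.000409). *Uqcrh*, the hinge protein beside cytochrome c1, had 584 and 532 reads in WT and 319 and 314 in KO (log2 fold change -0.81, standard error 0.14, adjusted p = 6.67e-05). In each of these genes the lowest WT library was well above the highest KO library. The call of *Cox7b* rested on the second KO library, without which its log2 fold change was -0.59.

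In complex I, 36 of 37 genes had a change below 0, with a median of -0.45, and 20 were down at an adjusted p under 0.05 (54.1%, against 22.1% of active genes). 5 of the 37 were called down, a share close to the 11.4% of active genes. The 7 core subunits hold the flavin and the iron-sulfur clusters that carry electrons, and 5 of them were lower at an adjusted p under 0.05. *Ndufs7*, which holds the last cluster before ubiquinone, fell the most, from 935 and 893 reads in WT to 504 and 577 in KO (log2 fold change -0.76, standard error 0.13, adjusted p = 4.89e-05). *Ndufv1*, which binds NADH, was the other core subunit called, from 289 and 318 reads to 215 and 181 (-0.62, adjusted p = 0.00495). *Ndufs3*, *Ndufs1* and *Ndufv2* changed by -0.55, -0.50 and -0.38 (adjusted p = 0.000968, 0.00135 and 0.0180), under the limit on the fold change. *Ndufs8* overlapped between groups, with 94.1 and 150 reads in WT and 116 and 97.2 in KO.

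The other 30 genes counted with complex I are mostly accessory subunits, which surround the core, but include *Ndufa4* and *Ndufa4l2*. Of the 30, 15 were down at an adjusted p under 0.05, *Ndufa4* among them (50%, against 22.1% of active genes). 3 of them, *Ndufb10*, *Ndufb9* and *Ndufa6*, also passed the limit on the fold change, a share below the 11.4% of all active genes. *Ndufb10* had 184 and 237 reads in WT and 111 and 128 in KO (log2 fold change -0.80, standard error 0.19, adjusted p = 0.00193). *Ndufb11* had a similar change, -0.81, from 35.6 and 35.0 reads to 23.3 and 16.7, but at this depth it did not pass (adjusted p = 0.0720). At the other end, *Ndufa3*, *Ndufa2* and *Ndufb4* had changes of -0.03, -0.06 and -0.13.

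All 4 genes of complex II, succinate dehydrogenase, were lower at an adjusted p under 0.05, against 22.1% of active genes. *Sdhd*, a membrane anchor, was the only one called, with 893 and 796 reads in WT and 562 and 474 in KO (log2 fold change -0.71, standard error 0.14, adjusted p = 0.000182). *Sdhb*, the iron-sulfur subunit, had 2625 and 2575 reads in WT and 1940 and 1746 in KO (-0.50, adjusted p = 0.000853). The flavoprotein gene *Sdha* and the second anchor gene *Sdhc* changed by -0.31 and -0.37 (adjusted p = 0.0305 and 0.0156). In all 4 genes both KO libraries lay below both WT libraries, as in 42.8% of active genes.

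In complex III, 7 of 8 genes passed the adjusted p (87.5%, against 22.1% of active genes). 4 were called, where 11.4% of active genes were: *Uqcrh*, *Uqcrq*, *Uqcr10* and *Uqcrb*, all of them small subunits. *Uqcrq* had 272 and 289 reads in WT and 171 and 156 in KO (log2 fold change -0.77, standard error 0.17, adjusted p = 0.000768). The large core proteins *Uqcrc1* and *Uqcrc2* changed less, by -0.35 and -0.43 (adjusted p = 0.0213 and 0.00454). *Uqcrfs1*, the Rieske iron-sulfur protein that hands electrons to cytochrome c1, overlapped between groups, with 233 and 195 reads in WT and 175 and 205 in KO (-0.17, adjusted p = 0.484).

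In complex IV, cytochrome c oxidase, 6 of the 11 active genes passed the adjusted p (54.5%, against 22.1% of all active genes). 5 were called, where 11.4% of all active genes were: *Cox8a*, *Cox6c*, *Cox7b*, *Cox6b1* and *Cox7a2*. The isoforms of liver and of most tissues were the ones read through. *Cox7a2* had 349 and 273 gene body reads in WT and 205 and 190 in KO (log2 fold change -0.64, adjusted p = 0.00413), whereas its counterpart of heart and muscle, *Cox7a1*, had 9.18 and 17.0 in WT and 10.6 and 13.7 in KO and showed no detectable difference at this depth. Per kb, *Cox7a1* thus stood at 10.7 and 19.8 in WT and *Cox7a2* at 96.5 and 75.6. *Cox6b1* had 683 and 748 reads in WT and 463 and 439 in KO (-0.66, adjusted p = 0.000319), and *Cox6a1* changed by -0.32 (adjusted p = 0.172). *Cox6a2*, the muscle form of *Cox6a1*, was not analysed here.

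The paralogs *Ndufa4* and *Ndufa4l2* had changes of opposite sign. *Ndufa4* had 371 and 352 gene body reads in WT and 276 and 229 in KO (log2 fold change -0.52, standard error 0.16, adjusted p = 0.0114). *Ndufa4l2*, which is induced by hypoxia in other tissues, had 17.2 and 20.0 reads in WT and 23.3 and 33.4 in KO (0.57, standard error 0.37, adjusted p = 0.241), and the change of this gene did not pass the test. The difference between the changes of the paralogs was not tested.

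Of the 17 *Atp5* symbols, counted as complex V, 13 passed the adjusted p (76.5%, against 22.1% of active genes). 9 were called, *Atp5sl* among them, where 11.4% of active genes were. Without *Atp5s* and *Atp5sl*, 3 of the 5 genes of the F1 head and 5 of the other 10 genes of ATP synthase were called. All 5 genes of the head, the part that makes ATP, passed the adjusted p, with changes from -0.68 to -0.50. *Atp5b* had 1878 and 1685 reads in WT and 1192 and 1104 in KO (log2 fold change -0.63, standard error 0.12, adjusted p = 0.000115), and *Atp5c1*, the central stalk subunit gamma, had 2279 and 2268 in WT and 1559 and 1369.5 in KO (-0.64, adjusted p = 7.79e-05). *Atp5e* was called as well (-0.68, adjusted p = 0.00816), while *Atp5a1* and *Atp5d* changed by -0.55 and -0.50 (adjusted p = 0.000389 and 0.00775). Subunit c, which forms the rotating ring, is encoded by 3 genes for the same mature protein. Of these, *Atp5g3* and *Atp5g1* were called down (-0.69 and -0.63, adjusted p = 0.00111 and 0.0319), and *Atp5g2*, with 833 and 860 reads in WT and 709 and 668 in KO, changed by -0.30 and did not pass (adjusted p = 0.0630). *Atp5k* had a counted gene body of 126 bp and at most 4.55 normalized reads in a library, so its change of 0.20 carries no weight.

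**Figure D2:**
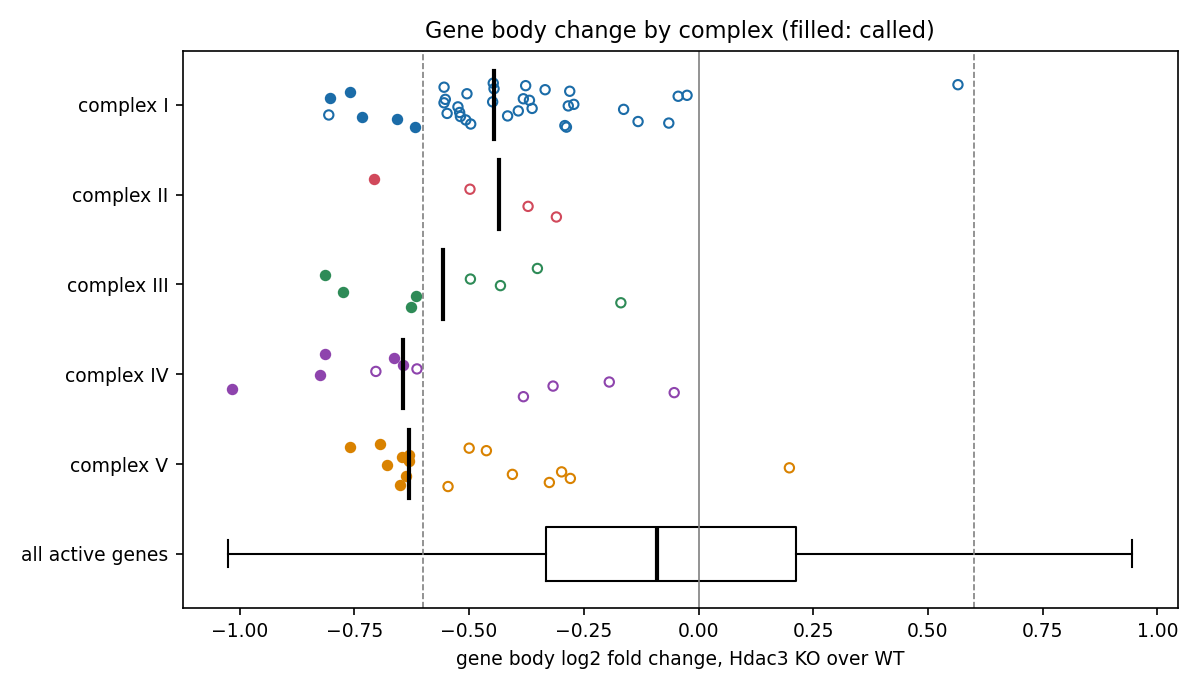
Gene body log2 fold change (Hdac3 KO over WT) of each active gene by complex, with filled points for called genes, a black bar at the median of each complex, and a box for all 12705 active genes (quartiles and median, whiskers at the 5th and 95th percentiles); dashed lines mark the limit of 0.6. The medians of the 5 complexes lay between -0.64 in complex IV and -0.43 in complex II, below the median of all active genes at -0.09.

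The limit on the fold change ran through a dense stretch of values. *Ndufv1* and *Uqcrb*, at -0.62 and -0.61, were the called genes nearest to it, and *Ndufb2* and *Ndufa10*, at -0.55 and -0.55 with adjusted p = 0.00815 and 0.00035, were the nearest that passed the adjusted p alone. The median was also below that of other genes of like length or level. Among the 3177 active genes with the shortest gene bodies the median change was -0.10, and for the 50 subunit genes among them it was -0.58. Among the 3176 active genes with the highest density it was -0.11, and for the 35 subunit genes among them -0.61. The subunit genes with lower density had smaller changes, with medians of -0.47, -0.39 and -0.29 in the next lower groups of the same size, which held 28, 11 and 3 of them.

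Promoters are shown for the genes with the largest falls that had an entry, *Cox8a*, *Cox7b* and *Uqcrh*, for *Atp5l*, the called gene with most matches of the marked motifs, and for *Ndufa3*, the gene with at least 50 mean reads that changed least. The sequences are RefSeq promoters of GRCm38.p6, 250 bases before the start and the 30 bases from it, read 5′ to 3′ on the strand of the gene. Capitals mark matches, on either strand, of a core of NRF1 (CGCATGCG), of the ETS family with GABP (CCGGAAG) or of YY1 (ATGGCGGC), counted separately where they overlap.
*Cox8a*, chr19:7217587-7217866, minus strand: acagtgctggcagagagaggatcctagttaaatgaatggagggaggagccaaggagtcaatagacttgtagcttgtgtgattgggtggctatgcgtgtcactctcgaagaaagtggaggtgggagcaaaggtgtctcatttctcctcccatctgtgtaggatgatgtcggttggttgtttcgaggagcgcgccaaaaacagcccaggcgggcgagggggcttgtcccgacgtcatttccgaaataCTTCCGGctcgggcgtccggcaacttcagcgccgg
*Cox7b*, chrX:106015450-106015729, plus strand: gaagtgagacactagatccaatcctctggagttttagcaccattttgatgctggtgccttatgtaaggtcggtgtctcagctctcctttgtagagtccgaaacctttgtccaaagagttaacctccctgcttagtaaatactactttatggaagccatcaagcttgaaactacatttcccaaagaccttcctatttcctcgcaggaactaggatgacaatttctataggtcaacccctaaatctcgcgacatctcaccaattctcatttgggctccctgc
*Uqcrh*, chr4:116075041-116075320, minus strand: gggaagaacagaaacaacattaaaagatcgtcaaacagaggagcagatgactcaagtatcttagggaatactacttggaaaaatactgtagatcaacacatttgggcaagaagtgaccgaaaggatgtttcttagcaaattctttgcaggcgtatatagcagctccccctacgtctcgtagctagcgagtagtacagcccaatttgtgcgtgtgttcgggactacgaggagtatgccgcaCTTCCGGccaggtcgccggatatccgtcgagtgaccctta
*Atp5l*, chr9:44920713-44920992, minus strand: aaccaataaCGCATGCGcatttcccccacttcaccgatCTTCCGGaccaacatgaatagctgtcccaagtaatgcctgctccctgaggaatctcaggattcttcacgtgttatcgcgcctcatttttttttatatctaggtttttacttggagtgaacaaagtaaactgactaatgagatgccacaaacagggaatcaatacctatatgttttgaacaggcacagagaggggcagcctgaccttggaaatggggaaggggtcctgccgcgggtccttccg
*Ndufa3*, chr7:3617123-3617402, plus strand: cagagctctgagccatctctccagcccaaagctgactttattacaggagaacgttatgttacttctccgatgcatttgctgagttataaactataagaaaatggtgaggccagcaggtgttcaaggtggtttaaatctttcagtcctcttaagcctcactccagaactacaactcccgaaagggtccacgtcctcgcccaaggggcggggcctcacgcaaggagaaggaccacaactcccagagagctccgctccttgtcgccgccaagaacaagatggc

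In *Cox8a* and *Uqcrh* an ETS core began 5 and 10 bases before the start, on the strand opposite to the gene, whereas *Cox7b* and *Ndufa3* held none of the 3 cores. An entry was found for 66 of the 81 genes, with 71 promoters in all, and the full windows of 300 bases were searched. The NRF1 core was found in 12.7% of the 71 promoters, against 3.79% of the 11588 promoters of active genes and 1.87% of all 32851 promoters. The ETS core was found in 22.5%, against 16.5% and 8.86%, and the YY1 core in 9.86%, against 4.49% and 2.24%. In contrast, a GC box (GGGCGG) was found in 38.0% of the promoters of subunit genes and in 60.8% of those of active genes, and TATAAA in 11.3% and 7.48%. Among the 20 promoters of genes called down in the gene body, 7 held the ETS core and 1 the NRF1 core, and among the 48 of other active subunit genes the counts were 9 and 8. An element of the estrogen-related receptors (TCAAGGTCA) was found in only 2 promoters, those of *Atp5g3* and *Sdhd*, both called down, and in 0.293% of promoters of active genes. These shares describe letters in the windows and were not tested.

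At the promoter-proximal windows, the subunit genes carried more polymerase in the KO livers, as did active genes in general. The median log2 fold change was 0.43 over the 77 genes and 0.56 over all active genes. The change was above 0 in 70 of the 77, and in 10695 of the 12705 active genes. With gene body factors for both regions it was above 0 in 72, and in 10959 active genes. With median-of-ratios or TMM scaling within the region it was above 0 in only 24, and in 6340 and 6325 active genes. Only 8 were called up and 0 down, where 25.8% of active genes were called up and 2.20% down. At an unadjusted p under 0.05, 18 were up and 0 down, against 39.9% and 3.51% of active genes, and edgeR and DESeq2 each called 8 up and 0 down. Both KO libraries lay above both WT libraries in 44 genes, against 61.9% of active genes, and below them in 0, against 6.72%. These counts rest on single libraries. All or nearly all of the 8 genes lost their call without either WT library or the second KO library, and some did without the first KO library. The median change of the subunit genes was 0.55 and 0.32 without the first and the second WT library. It was 0.61 and 0.29 without the first and the second KO library.

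The called genes came from 4 of the complexes: *Ndufa4l2*, *Ndufs3*, *Ndufa8*, *Ndufs8*, *Sdha*, *Uqcrc1*, *Atp5d* and *Atp5k*. *Ndufs3*, a core subunit of complex I, had 181 and 150 promoter-proximal reads in WT and 250.3 and 370 in KO (log2 fold change 0.88, standard error 0.32, adjusted p = 0.0264). *Ndufa8* had the most reads of these genes, 1064 and 966 in WT and 1816 and 1864 in KO (0.86, standard error 0.28, adjusted p = 0.0129). *Sdha* had 321 and 261 reads in WT and 425 and 642 in KO (0.85, standard error 0.30, adjusted p = 0.0242). In these 3 genes the groups did not overlap, although the KO libraries of *Ndufs3* and *Sdha* differed from each other by more than the lower of them did from WT. *Ndufa4l2* had the largest fitted rise but few reads, 9.18 and 1 in WT and 35.0 and 19.7 in KO (2.60, standard error 0.47, adjusted p = 4.07e-06). Its value was 1.42 without the second WT library and 3.77 without the first, and it lost the call without the second WT or either KO library. None of the 24 genes called down in the gene body was among these 8, and 5 of the 50 genes that were lower in the gene body at an adjusted p under 0.05 were.

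The level of the promoter-proximal changes depended on the scaling. With gene body factors for both regions the median was 0.64 over all active genes and 0.51 over the subunit genes. Median-of-ratios scaling within the region brings the median of active genes near 0 by design, so it cannot show a shift shared by most genes. It moved that median from 0.56 to near 0 and that of the subunit genes to -0.14. It also turned the split of all calls from 3282 up and 280 down to 634 up and 942 down. Under it, only *Ndufa4l2* was called up, and *Ndufa6* (-0.79, adjusted p = 0.0273), *Atp5g1* (-0.80, adjusted p = 0.00817) and *Atp5g2* (-0.84, adjusted p = 0.0444) were called down. With the deposited scaling, these 3 genes had changes of -0.22, -0.23 and -0.27, lower than those of nearly all other subunit genes. *Atp5g1*, for example, had 710 and 653 reads in WT and 499 and 677 in KO. The window of *Atp5f1* held at most 1.52 normalized reads in a library, and the annotation gives it another start 823 bp from its outermost one; its promoter-proximal values therefore say nothing of its true start.

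**Figure D3:**
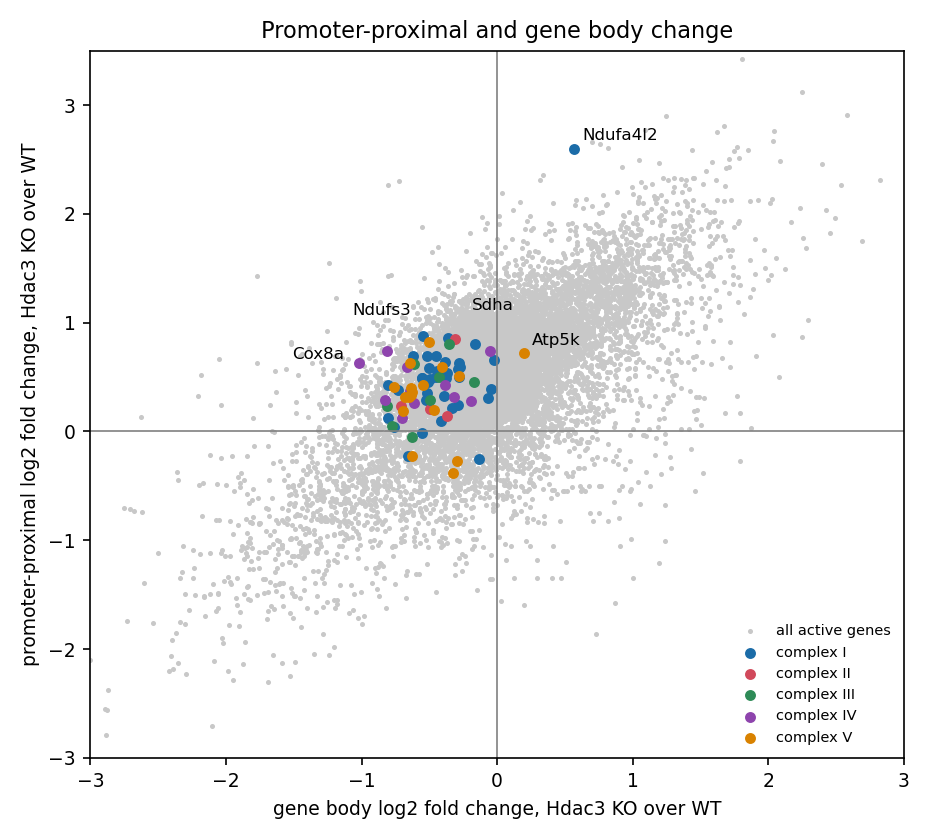
Promoter-proximal against gene body log2 fold change (Hdac3 KO over WT) of the 77 active subunit genes, colored by complex, over all active genes in gray, 21 of which lie outside the axes. Of the subunit genes, 68 lie in the upper left quadrant, above 0 at the promoter and below 0 in the gene body, which holds 47.0% of active genes; with scaling within each region, 20 subunit genes would lie there.

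With the deposited scaling, 68 of the 77 genes (88.3%) were thus above 0 at the promoter and below 0 in the gene body. When each region was scaled by median of ratios, this held for 20 (26.0%, against 17.2% of active genes), and 51 were below 0 in both (66.2%, against 34.0%). With gene body factors for both regions it held for 66. Across the 77 genes the changes in the 2 regions were related with Pearson r = 0.43 (Spearman rho = 0.28), and r across all active genes was 0.66. Without *Ndufa4l2*, r was 0.18 and rho 0.25 over the other 76. Genes are not independent replicates, and the 2 regions of a gene were read in the same libraries.

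The pausing index, the density of the promoter-proximal window over that of the gene body, each from normalized reads plus 1, was higher accordingly. Its median over the subunit genes was 44.3 and 39.3 in the WT libraries and 69.5 and 97.9 in the KO libraries. Over all active genes it was 50.1 and 44.9 in WT and 61.5 and 85.5 in KO, so the median of the subunit genes lay below that of active genes in both WT libraries and above it in both KO libraries. The median log2 fold change was 0.92 against 0.61, and both KO libraries lay above both WT libraries in 67 of the 77 genes, against 62.8% of active genes. 18 genes were called up and 0 down, where 12.4% of active genes were called up and 0.519% down. None of the subunit genes was down at an unadjusted p under 0.05, where 1.14% of active genes were, or in edgeR or DESeq2.

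The largest rises were those of *Ndufa4l2*, *Cox8a*, *Cox7b* and *Ndufs3*. The index of *Cox8a* was 42.4 and 29.9 in WT and 88.6 and 140 in KO (log2 fold change 1.65, standard error 0.40, adjusted p = 0.00324), and that of *Cox7b* was 32.4 and 22.0 in WT and 67.4 and 90.4 in KO (1.55, standard error 0.41, adjusted p = 0.00736). In both genes a higher promoter-proximal value, of itself not past the test, met a called fall in the gene body. *Ndufs3*, with a called rise at the promoter, rose by 1.43 (adjusted p = 0.0132), and the rise of *Ndufa4l2*, 2.03 (adjusted p = 0.00109), rests on its few promoter-proximal reads, with 0.76 and no call without the second WT library, 1.39 and no call without the first KO library, and 3.31 without the first WT library. The calls depended strongly on single libraries. The median change of the subunit genes was 0.95 and 0.85 without the first and the second WT library, against 0.68 and 0.55 over active genes. It was 1.09 and 0.72 without the first and the second KO library, against 0.85 and 0.38. With scaling within each region, which brings the median of active genes in each region near 0 by design, 0 subunit genes were called up. The median was then 0.27 for the subunit genes and -0.03 for active genes. The calls over all active genes went from 1574 up and 66 down to 6 up and 11 down. Gene body factors for both regions nearly cancel in the index. With them 18 were called up, against 12.3% of active genes, and the median was 0.92.

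**Figure D4:**
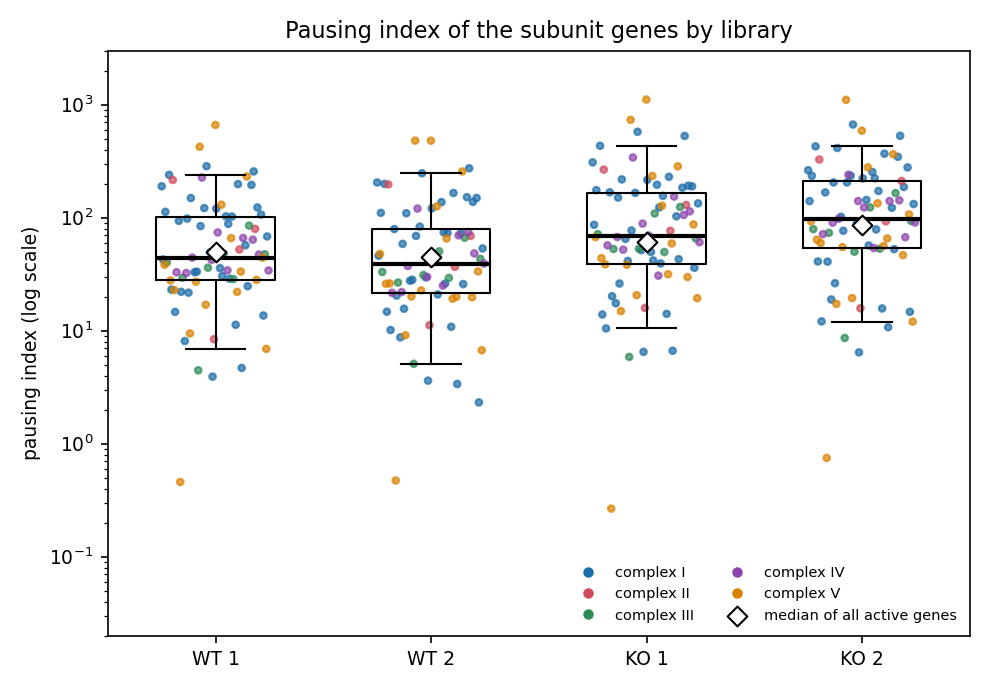
Pausing index (log scale) of each of the 77 active subunit genes in the 4 libraries, colored by complex, with boxes for quartiles and median, whiskers at the 5th and 95th percentiles, and diamonds for the median of all active genes. The median of the subunit genes rises from 44.3 and 39.3 in WT to 69.5 and 97.9 in KO; the lowest point in each library is Atp5f1.

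Other genes of the chain, or tied to it, were lower as well. There were 7 such active genes with other symbols, and not all of them encode structural subunits. Of the 7, 6 were down in the gene body at an adjusted p under 0.05, against 22.1% of active genes. 0 were up, and the median was -0.55. Both cytochrome genes were called. *Cycs*, cytochrome c, which carries electrons from complex III to complex IV, had 656 and 748 reads in WT and 424 and 433 in KO (log2 fold change -0.71, adjusted p = 0.000188), and *Cyc1*, cytochrome c1 of complex III, had 258 and 261 in WT and 144 and 187 in KO (-0.66, adjusted p = 0.00500). *Cox4i1*, *Usmg5*, *Higd1a* and *Ndufab1* changed by -0.55, -0.56, -0.55 and -0.37. *Atpif1*, the inhibitor of ATP synthase, was the exception, with 57.4 and 64.0 gene body reads in WT and 84.9 and 54.7 in KO and a called rise at the promoter (1.23, adjusted p = 0.00139). *Cox4i2*, the form of lung and hypoxic cells, was not among the active genes because of its low gene body density. Its promoter-proximal reads were 36.7 and 19 in WT and 154 and 217 in KO, and its gene body reads 2.29 and 13 in WT and 21.2 and 25.8 in KO. *Higd2a* was not analysed here.

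Of 18 genes of the TCA cycle and pyruvate dehydrogenase, 11 were down in the gene body at an adjusted p under 0.05 and 0 were up, with a median of -0.42. 3 were called, *Fh1* (fumarase, -1.07), *Idh3a* (-0.88) and *Sucla2* (-0.64), while citrate synthase, *Cs*, had 1474 and 1663 reads in WT and 1660 and 1684 in KO. Of 26 active assembly factors, 9 were down and 0 up, with a median of -0.34 and *Cox11*, *Lrpprc*, *Ttc19* and *Ndufaf4* called. Of 74 mitochondrial ribosomal proteins, 17 were down and 0 up, with a median of -0.24 and *Mrpl43*, *Mrpl50*, *Mrpl12* and *Mrps7* called. The share down was thus 23.0% in the last list, beside 22.1% of all active genes.

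Among 13 regulators of mitochondrial genes, 6 were down in the gene body at an adjusted p under 0.05 and 0 up, against 22.1% and 17.0% of active genes. *Ppargc1a*, the coactivator PGC-1 alpha, had the largest change, from 7414 and 7199 reads in WT to 1770.5 and 1351 in KO (log2 fold change -2.24, standard error 0.12, adjusted p = 3.73e-12), and it was also the only one called down at the promoter (-1.26, adjusted p = 0.00237). Its relative *Ppargc1b* had 9352 and 8206 reads in WT and 5427 and 5372 in KO (-0.70, adjusted p = 1.65e-05), and *Tfb1m*, a mitochondrial rRNA methyltransferase, changed by -0.78 (adjusted p = 0.000116). Other regulators had smaller values. *Esrra*, *Tfam*, *Polrmt* and *Gabpa* had values of -0.45, -0.38, -0.43 and -0.32 (adjusted p = 0.00357, 0.0184, 0.0194 and 0.0504), and *Nrf1*, *Gabpb1*, *Yy1*, *Hcfc1* and *Tfb2m* lay between -0.21 and -0.06 and did not pass. *Pprc1* had 1038 and 1421 gene body reads in WT and 1269 and 1248 in KO, and was called up at the promoter (1.26, adjusted p = 0.000296).

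**Figure D5:**
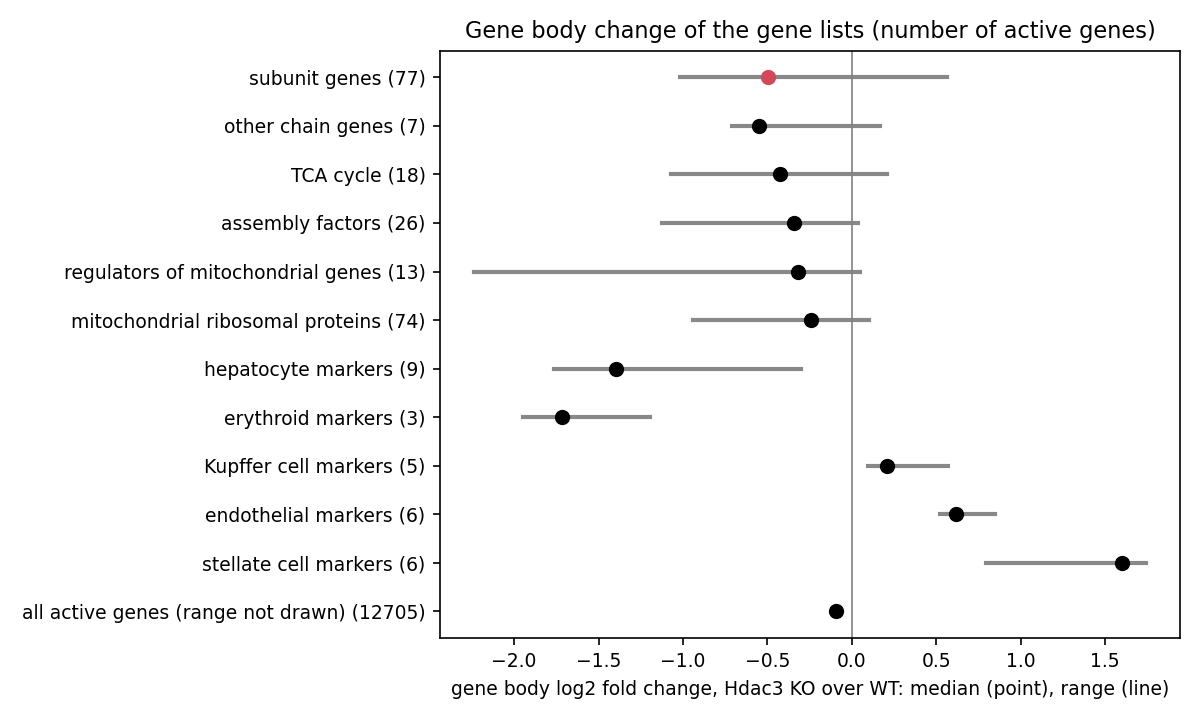
Median (point) and range (line) of the gene body log2 fold change (Hdac3 KO over WT) of the subunit genes, other mitochondrial gene lists and markers of liver cell types, with the number of active genes in parentheses. Medians run from -1.72 for 3 erythroid markers and -1.40 for 9 hepatocyte markers to 1.60 for 6 stellate cell markers; the subunit genes are at -0.50.

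Markers of cell types moved with the genotype. All 9 hepatocyte markers were present and lower in the gene body at an adjusted p under 0.05, with a median of -1.40; *Hnf4a*, for example, had 17104 and 17557 reads in WT and 5615 and 6374 in KO. All 6 markers of endothelial and all 6 of stellate cells were higher, with medians of 0.62 and 1.60, and of 5 Kupffer cell markers 1, *Cd5l*, was higher at an adjusted p under 0.05. Summed gene body reads of the stellate cell markers were 9491 and 10642 in WT and 21259.5 and 19568 in KO. Among erythroid markers, *Alas2* was lower and *Hbb-b1* had at most 5.74 reads. Of 3 active cholangiocyte markers, *Sox9* was lower (-1.33, adjusted p = 0.000428), while *Krt19* and *Spp1* had values of 0.83 and 0.44 that did not pass in the gene body and *Krt19* was called up at the promoter (1.33, adjusted p = 0.000739). None of the 7 skeletal muscle markers and none of the 3 brown fat markers was active, and *Myh4* had 0 reads. In a whole tissue, fewer cells of a type and less transcription per cell cannot be told apart, and the part of cell composition in the change of the subunit genes was not tested.

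Another protein-coding gene started head to head, within 1 kb or overlapping by up to 300 bp, in 24 of 76 subunit genes with a position (31.6%), against 12.9% of active genes. The 24 subunit genes had a median gene body change of -0.52. Their 21 active partners, none of them a subunit gene, had a median of -0.21. Of these partners, 4 were down at an adjusted p under 0.05 and 0 up, against 22.1% and 17.0% of active genes. *Lrrc41*, whose start lies 198 bp from that of *Uqcrh*, changed by -0.09 (adjusted p = 0.554) where *Uqcrh* changed by -0.81, while *Kin*, 83 bp from *Atp5c1*, changed by -0.51 (adjusted p = 0.00227). Of the 2282 enhancers that were listed from the pooled libraries, 2 had a subunit gene as the closest gene, *Ndufb4* at 29182 bp and *Cox7a2l* at 12795 bp. This is 2.60% of the active subunit genes against 10.9% of active genes, and 5 subunit genes (6.49%) against 9.83% of active genes were listed within 50 kb of an enhancer. The list holds no values of single libraries, and changes of these enhancers were not analysed here.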

How the data were processed

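PRO-seq reads of 4 libraries (2 WT, 2 *Hdac3* KO; labels of the samples) were trimmed with cutadapt, aligned to mm10 with Bowtie2, filtered to remove ribosomal RNA and poor mapping, and counted on RefSeq transcripts with NRSA by the authors. Reads that fit processed copies of a subunit gene equally well are lost in this step. Per the labels and values, the second WT library was deposited as counts (the authors' factor is 1), and the other libraries as signal, counts multiplied by a factor. The deposited densities are this signal for each bp. Division by the factor gave whole reads for 100% of 41640 values per library (tolerance 0.01).

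Log2(value + 1) was fitted with limma 3.58.1 (trend, no block) in R 4.3.3 over 12705 active genes with Benjamini-Hochberg adjustment. Alternatives were edgeR 4.0.16, DESeq2 1.42.0, pseudocounts of 0.1 and 10, other activity filters, scalings and thresholds, a block for replicate number, and leaving out single libraries. In simulated data with 12705 genes, limma recovered 90% of 100 genes changed by 1 on the log2 scale in gene bodies. In promoter-proximal windows it recovered 1% and edgeR 27%. Far fewer genes were changed in the simulation than were called at the promoter in the livers. This makes the adjusted p stricter, so the shares do not give the sensitivity in the livers. Positions are GENCODE vM21 (GRCm38).

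Members and gene lists were chosen with earlier results of these data known. Named genes are, per measure, the 4 largest called rises and falls with separated groups, the 3 highest and lowest WT gene body densities, the complex I core, *Sdh*, F1 head and isoform lists, other chain genes, regulators, called genes of the other lists, inactive members and *Hdac3*. Other genes named (among them *Ndufb10*, *Ndufb11*, *Ndufa3*, *Uqcrfs1*, *Atp5g2*, *Atp5k*, *Ndufa6*, *Cs*, *Lrrc41* and *Kin*) were chosen after their values were seen. Figures were drawn with matplotlib. Some genes of these lists are not reported here.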

Additional observations from a re-analysis of the deposited data

How the results depend on the processing

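The number of subunit genes called down in the gene body, 24, stayed between 20 and 24 with edgeR, DESeq2, both other pseudocounts and the stricter activity filter, and 0 were called up under every alternative. It was 11 with median-of-ratios or TMM scaling within the region, against 9.37% and 9.38% of active genes. Gene body factors for both regions are the median-of-ratios factors, so in the gene body they repeat that fit. Without the activity filter the number called down was 3, against 2.86% of all gene symbols. Without a limit on the fold change it was 50, against 22.1% of active genes. With each library left out in turn the median change stayed between -0.53 and -0.48, and some calls were lost each time. The median gene body change moved to -0.42 with either scaling within the region. At the promoter, the 8 genes called up became 1 with either scaling within the region, 5 with gene body factors, 0 without the filter, and 0 to 8 with libraries left out; scaling within the region called 3 down and reversed the median, to -0.14. For the pausing index, the 18 genes called up became 27 with edgeR, 13 with DESeq2, 14 with a pseudocount of 0.1, 35 with a pseudocount of 10, 24 with the stricter filter, 0 without the filter, 0 with scaling within the region (median 0.27), and 0 to 53 with libraries left out. With a replicate block the counts were 24 in the gene body, 1 at the promoter and 2 for the pausing index. The shares of active genes were 11.4%, 13.9% and 1.46%. Counts of subunit genes in the other direction stayed at 0. A crossed block, added after the data were seen, gave 24, 17 and 52, against 11.5%, 38.3% and 32.3% of active genes. The deviations of same-numbered libraries correlated at -0.11 (promoter-proximal) and 0.019 (gene body). The labels do not say whether same-numbered libraries were prepared together, and with 2 libraries of each genotype these values cannot decide it. For the 4 genes with the largest called changes in each measure, 59 of 96 values under the alternatives stayed past the threshold and 37 did not, 0 with a change of sign; in the gene body only *Cox7b* lost its call, without the second KO library. Over all active genes, 3282 called up at the promoter became 634 with median-of-ratios scaling, 1772 with the block, 319 to 3522 with libraries left out and 0 without the filter, and 1324 up and 1449 down in the gene body became 406 and 591 without the filter. The causes were not tested. The median standard error of the subunit genes was 0.32 at the promoter and 0.16 in the gene body, and few reads limit what can be read from *Atp5f1* and *Ndufa4l2* at the promoter and *Atp5k* in the gene body.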
